A study of Mus musculus with 6 samples.

Results

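Cd14, the cell-surface co-receptor for bacterial lipopolysaccharide, was followed with 9 further genes of lipopolysaccharide sensing and its inflammatory output in whole melanoma grafts of the mouse tongue. The 10 genes were 5 of sensing (Cd14, Ly96, Tlr4, Tlr2 and Myd88) and 5 of output (Acod1, Il6, Tnf, Nos2 and Ptgs2), out of 55487 genes counted. They were chosen by function, with their differences between control and inhibition grafts already known from earlier work on these data. The fold changes of these 10 genes are therefore a description, and no test of them is used as support.

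Lipopolysaccharide and several host proteins released by stressed cells are recognised by toll-like receptor 4. CD14 hands the ligand to TLR4 and to its small partner MD-2, the product of Ly96, while TLR2 recognises bacterial lipoproteins. Both receptors signal through the adaptor MYD88 to NF-kappaB, which switches on cytokine genes and enzymes in macrophages, monocytes and neutrophils. In a tumour graft these genes are read mainly, though not only, as signs of activated myeloid cells.

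The grafts were B16F10, a pigmented mouse melanoma line, grown under the tongue mucosa of wild-type C57BL/6J mice, with 3 control and 3 inhibition libraries. According to the design text, the cervical lymph nodes had received AAV2/retro-Trpv1-mCherry (a fluorescent protein alone) or AAV2/retro-Trpv1-hM4D(Gi)-mCherry (the protein with a silencing receptor) 6 weeks earlier, both driven from Trpv1, a gene of nociceptors. Deschloroclozapine, the ligand of that receptor, was given 2 times per day for 12 days. The labels of the controls instead say vehicle, so whether the controls received the ligand is unclear; the column names of the treated group speak of denervation. Neither vector product was counted, the animals' age was not given, and the labels do not tie each library to an animal of its own, so errors measure only the spread between these samples. Melanoma markers summed to between 22737 and 34468 CPM (read counts after scaling every library to the same total) in the 6 libraries, in which total counts ran from 14477277 to 20972494.

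Cd14 (ENSMUSG00000051439, protein-coding, chromosome 18 from 36725067 to 36726798 on GRCm38) stood at 19.8, 12.4 and 16.8 CPM in control 1, 2 and 3, and at 3.57, 6.61 and 6.15 CPM in inhibition 1, 2 and 3. The groups did not overlap, and inhibition 1 was the lowest of the 6. The means were 16.3 ± 3.74 and 5.44 ± 1.64 CPM (SD, n = 3 each). Inhibition grafts thus held 2.97-fold less, with a log2 fold change of -1.57 and a standard error of 0.25. Behind these values lay 190 to 347 reads per control library and 51 to 129 per inhibition library. In whole grafts, fewer cells that express a gene and less RNA of that gene per cell cannot be told apart.

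The receptor complex that receives the ligand from CD14 differed far less in level. Tlr4, the signalling receptor (chromosome 4 from 66827584 to 66930284), stood at 49.1, 43.3 and 48.1 CPM in the controls and at 43.2, 43.9 and 40.4 CPM under inhibition. Control 2 lay below inhibition 2, so the groups overlapped, and the log2 fold change was -0.14 with a standard error of 0.08. Ly96 (chromosome 1 from 16688051 to 16709611) stood at 6.28, 6.31 and 6.58 CPM in the controls and at 5.54, 5.12 and 5.19 CPM under inhibition. Every inhibition graft lay below every control, within a narrow range, with a log2 fold change of -0.28 (standard error 0.18).

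Tlr2, the lipoprotein receptor (chromosome 3 from 83836272 to 83841767), was the 1 member with a positive log2 fold change, 0.25 with a standard error of 0.23. Its levels were 3.68, 4.75 and 4.21 CPM in the controls and 4.48, 6.00 and 4.48 CPM under inhibition, with overlapping groups. Myd88, the shared adaptor (chromosome 9 from 119335934 to 119341411), had 14.5, 20.2 and 13.5 CPM in the controls and 16.2, 15.7 and 13.5 CPM under inhibition. Control 2 was the highest of the 6 for Myd88 and the groups overlapped; the log2 fold change of -0.08 (standard error 0.17) became 0.10 without control 2. Acaa1a on the opposite strand and Slc22a14 on the same strand overlap Myd88 in the annotation, and the strand setting of the counts is unknown, so its level is uncertain.

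**Figure D1:**
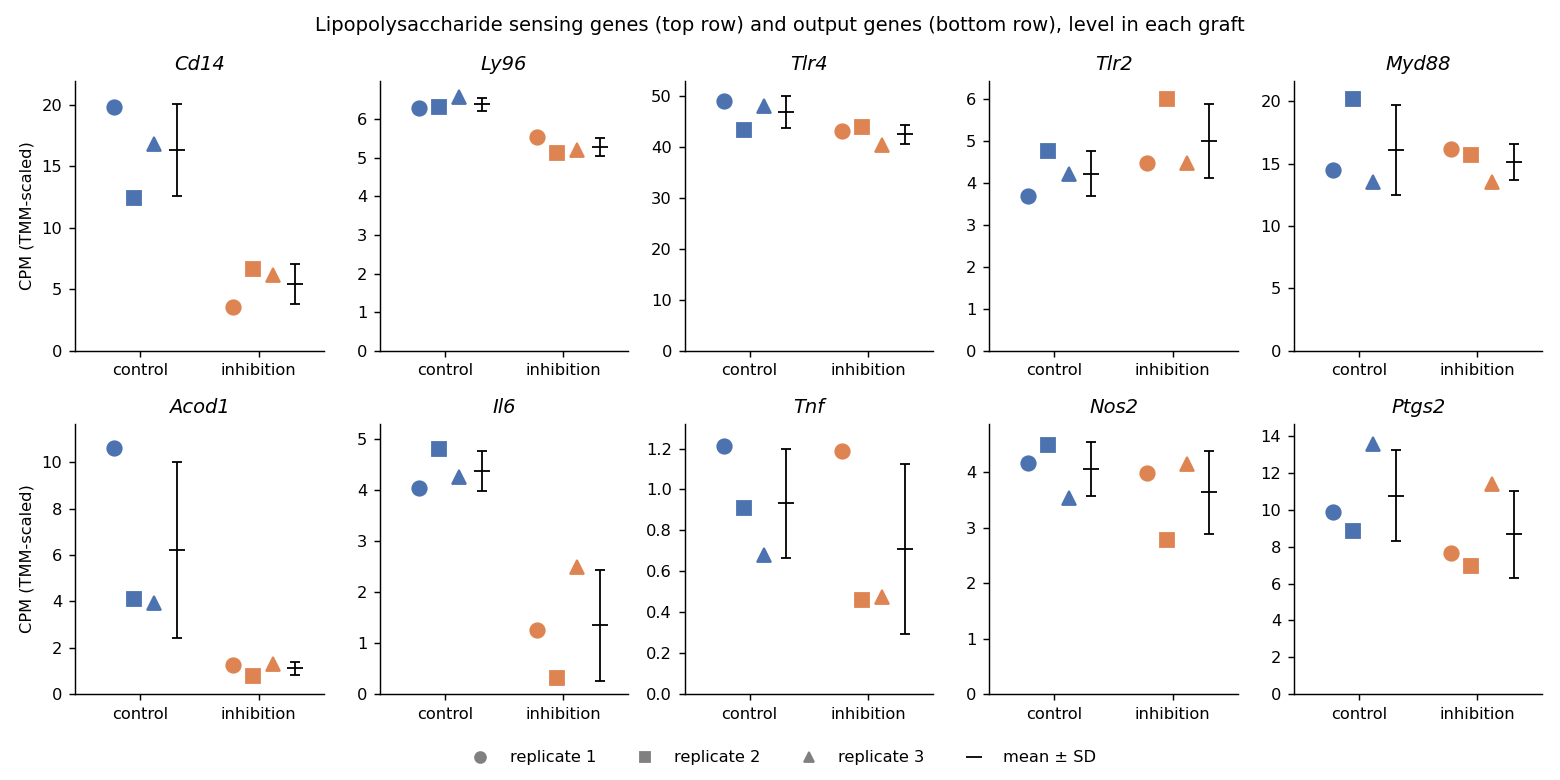
Level of each of the 10 genes in CPM (vertical axes from 0, TMM-scaled) in the 3 control and 3 inhibition grafts, with replicate numbers as symbols and the mean ± SD (n = 3) beside them. For Cd14, Ly96, Acod1 and Il6 all inhibition grafts lie below all controls, while the groups overlap for Tlr4, Tlr2, Myd88, Tnf, Nos2 and Ptgs2.

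Divided by exon length, which allows levels of different genes to be set side by side, Cd14 came first among the 10 genes in the controls and the fourth under inhibition. Its level per kilobase was 9.42 ± 2.16 CPM in the controls, beside 8.43 ± 0.563 for Tlr4, 6.26 ± 0.164 for Ly96 and 6.24 ± 1.41 for Myd88 (SD, n = 3). Cd14 and Tlr4 did not differ beyond their spread there, and neither did Ly96 and Myd88. Under inhibition the order was Tlr4 (7.64 ± 0.334 CPM per kilobase), Myd88 (5.88 ± 0.551), Ly96 (5.18 ± 0.215) and Cd14 (3.14 ± 0.945). Tlr2 stood at 1.40 ± 0.177 in the controls and 1.65 ± 0.290 under inhibition.

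Within each graft, the level of Cd14 per length was 1.29, 0.917 and 1.12 times that of Tlr4 in control 1, 2 and 3, and 0.266, 0.483 and 0.489 times in inhibition 1, 2 and 3. These ratios did not overlap between the groups. The ratio of Cd14 to Ly96 separated the groups too, with means of 1.51 ± 0.352 in the controls and 0.613 ± 0.204 under inhibition (SD, n = 3). The ratio of Tlr2 to Tlr4 overlapped, with means of 0.167 ± 0.0325 and 0.216 ± 0.0318 (SD, n = 3). Such ratios do not depend on library scaling.

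Among the output genes, Acod1 and Il6 had the larger differences. Acod1 (chromosome 14 from 103046977 to 103056573) encodes the enzyme that makes itaconate, a metabolite of activated macrophages. It stood at 10.6, 4.10 and 3.92 CPM in the controls and at 1.26, 0.769 and 1.29 CPM under inhibition. Control 1 was far above the other controls, yet the groups did not overlap. Means were 6.19 ± 3.78 and 1.11 ± 0.292 CPM (SD, n = 3), and the log2 fold change of -2.48 (standard error 0.45) was -1.87 without control 1.

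Il6 (chromosome 5 from 30013114 to 30019981), a cytokine of fever and the acute phase response, stood at 4.04, 4.81 and 4.26 CPM in the controls and at 1.26, 0.307 and 2.48 CPM under inhibition. The controls lay close together, while the inhibition grafts were spread widely and all lay below them. The lowest, inhibition 2, rested on 6 reads and inhibition 3 on 52. The log2 fold change was -1.68 with a standard error of 0.56, and it was -2.55 without inhibition 3 and -1.20 without inhibition 2.

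Tnf, Nos2 and Ptgs2, all textbook targets of the same receptor, overlapped between the groups. Tnf, the tumour necrosis factor gene (chromosome 17 from 35199381 to 35202007), was the lowest of the 10, with 9 to 20 reads per library. Its levels were 1.21, 0.911 and 0.678 CPM in the controls and 1.19, 0.461 and 0.476 CPM under inhibition. Inhibition 1 stood at the level of the highest control, and the log2 fold change was -0.43 (standard error 0.48). With 1 library left out it ran from -0.98, without inhibition 1, to -0.21.

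Nos2, the inducible nitric oxide synthase (chromosome 11 from 78920787 to 78960254), stood at 4.16, 4.49 and 3.53 CPM in the controls and at 3.99, 2.77 and 4.15 CPM under inhibition, a log2 fold change of -0.16 (standard error 0.25). Without inhibition 2, the lowest graft for Nos2, its log2 fold change was -0.00. Ptgs2, the inducible cyclooxygenase of prostaglandin synthesis (chromosome 1 from 150100031 to 150108227), stood at 9.90, 8.85 and 13.6 CPM in the controls and at 7.64, 6.97 and 11.4 CPM under inhibition. Replicate 3 was the highest of both groups for Ptgs2, and the log2 fold change was -0.31 (standard error 0.23). Per kilobase of exon the output genes ran from 2.36 ± 1.44 (Acod1) and 2.35 ± 0.539 CPM (Ptgs2) in the controls down to 0.569 ± 0.162 (Tnf). Under inhibition Acod1 was the lowest of the 10, at 0.421 ± 0.111 CPM per kilobase, beside 0.433 ± 0.254 for Tnf, within their spread.

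**Figure D2:**
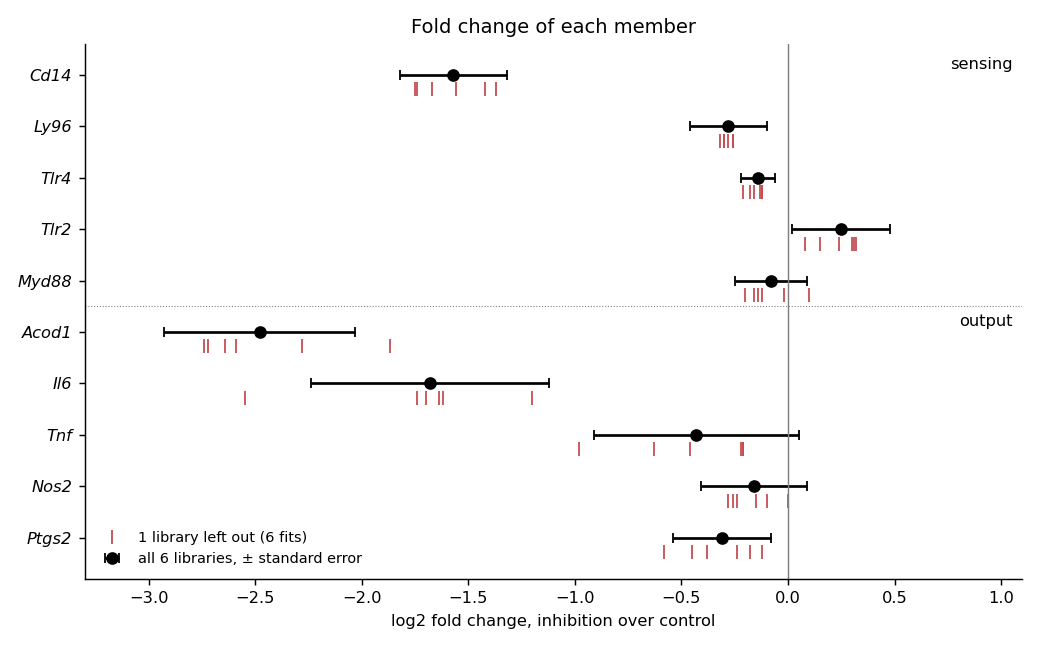
Log2 fold change of inhibition over control (horizontal axis) for the 10 genes, with the standard error as bars and, in red, the 6 values with 1 library left out each. Cd14, Acod1 and Il6 lie below -1 in every one of these fits, Myd88 crosses 0, and the remaining 6 lie between -0.98 and 0.32.

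All 10 genes passed the filter on low counts. In the edgeR quasi-likelihood fit across 15666 genes, with Benjamini-Hochberg adjustment, 0 of the 10 were called at an adjusted p under 0.05, where 0.0383% of all genes were called. At an unadjusted p under 0.05, 3 of them (Cd14, Acod1 and Il6) were lower, where 7.00% of all genes were. DESeq2, which gave an adjusted p for 9 of them and none for Tnf, called 3, Cd14, Acod1 and Il6, where it called 3.67% of the genes. In edgeR, Cd14 was called without control 2, and both Cd14 and Il6 without inhibition 3. The inhibition grafts all lay below the controls for 4 of the 10 genes, which over all genes held for 11.0%, and all above for 0 of the 10, against 10.2%. As the genes were picked with this comparison known, nothing is read from these counts.

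The upstream sequence is shown for 4 output genes, all known targets of NF-kappaB. Acod1 and Il6 had groups that did not overlap, and Tnf and Ptgs2 had groups that did. Whether the fold changes of these 4 genes differ from each other was not tested. Each run is the 150 bases before the transcription start in RefSeq on GRCm38.p6, 5′ to 3′ on the strand of the gene, and capitals mark matches to the motifs searched.
Acod1, chr14:103046862-103047011, plus strand: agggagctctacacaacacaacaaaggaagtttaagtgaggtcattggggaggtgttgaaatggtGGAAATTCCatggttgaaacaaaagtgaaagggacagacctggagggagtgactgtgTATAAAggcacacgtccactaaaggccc
Il6, chr5:30012964-30013113, plus strand: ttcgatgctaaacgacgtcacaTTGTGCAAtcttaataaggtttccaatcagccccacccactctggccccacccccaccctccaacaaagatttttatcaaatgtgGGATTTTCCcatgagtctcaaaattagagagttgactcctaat
Tnf, chr17:35202008-35202157, minus strand: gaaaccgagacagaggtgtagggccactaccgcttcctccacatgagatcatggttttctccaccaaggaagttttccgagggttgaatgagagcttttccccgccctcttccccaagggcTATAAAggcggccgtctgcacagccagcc
Ptgs2, chr1:150099881-150100030, plus strand: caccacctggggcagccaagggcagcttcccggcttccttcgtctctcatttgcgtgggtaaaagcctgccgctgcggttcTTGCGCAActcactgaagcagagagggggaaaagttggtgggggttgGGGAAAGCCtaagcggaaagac

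A kappaB-type motif, GGNNTTNCC on either strand, matched at bases -85 to -77 of Acod1, -43 to -35 of Il6 and -22 to -14 of Ptgs2, counted from the start with -1 as the last base before it. A C/EBP-type motif, TTGCNNAA on either strand, matched at -128 to -121 of Il6 and at -69 to -62 of Ptgs2, and TATAAA on the strand of the gene matched at -28 to -23 of Acod1 and -29 to -24 of Tnf. These motifs do not overlap each other in the stretches shown. The table held promoters for 6 of the 10 genes outside chromosome 18 (these 4, Tlr2 and Myd88) in windows of 300 bases, 250 before and 50 after the start. In these windows the kappaB motif occurred in 5 of 6 (Tlr2, Myd88, Acod1, Il6 and Ptgs2), against 15.9% of 32544 promoters. The C/EBP motif occurred in 2 of 6 against 10.8%, and TATAAA in 3 of 6 (Myd88, Acod1 and Tnf) against 8.28%. The AP-1 motif TGANTCA occurred in Il6 alone among the 6 (7.79% of promoters), the ISRE motif TTCNNTTTC in Myd88 alone (8.53%), and the CRE motif TGACGTCA in 0 of 6 (1.80%), all read on either strand. The start used lay 1393 bases from the annotated start of the gene, on its own strand, for Myd88 and 159 for Tlr2, beside 0 to 35 for the other 4. Matches in Myd88 and Tlr2 depend on that choice of start, and the TATAAA of Myd88 lay at -160 to -155. A match of letters describes the sequence only, and the kappaB motif occurred both in genes whose groups overlapped and in genes whose groups did not.

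Cell type markers differed between the same grafts. Neutrophil markers, which include S100a8 and S100a9 and the receptors Csf3r and Cxcr2, summed to 38.5 to 100 CPM in the controls. Under inhibition they summed to 9.04 to 32.0 CPM, with no overlap. Over all 16 genes, whether or not they passed the count filter, the mean level was lower under inhibition for 15 and higher for 1, Camp, and the groups did not overlap for 8. Ly6g, below the filter, is among the 8. Of the 9 tested markers 7 lay lower without overlap, where 11.0% of all genes tested did. Ly6g, Elane, Mpo and Ngp were at 0 in every inhibition library, but were scarce in the controls as well. Ly6g had 1 read in each control, and Elane, Mpo and Ngp had 2, 2 and 9 reads in control 1 and 0 in control 2 and 3. DESeq2 called Retnlg, Trem1 and Fpr1 lower, where it called 3.67% of all genes. In edgeR 0 of the neutrophil markers were called, and at an unadjusted p under 0.05 there were 5 lower, where 7.00% of all genes were. The part of these markers in the lower Cd14, Acod1 and Il6 was not tested.

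Macrophage and monocyte markers lay on the other side. The 12 macrophage markers summed to 176 to 293 CPM in the controls and 265 to 302 under inhibition, with an overlap. Log2 fold changes were positive for 10 of the 12 (median 0.49, and 0.27 to 0.78 with 1 library left out). None of the 12 was at 0 in either group. The 8 monocyte markers summed to 453 to 679 CPM and 692 to 924 CPM, with a median log2 fold change of 0.63, and none was at 0 in either group. Fn1, which is also a matrix gene, made up most of that sum. Without Fn1 the sums were 95.9, 159 and 106 CPM in the controls and 175, 215 and 157 CPM under inhibition, which overlap, and the median was 0.68. Set against Csf1r, the growth factor receptor of macrophages, the level of Cd14 per length was 4.24, 1.80 and 3.67 times as high in the controls and 0.465, 0.714 and 0.791 times under inhibition. For Acod1 the ratios were 1.49, 0.394 and 0.566 in the controls and 0.108, 0.0548 and 0.109 under inhibition. Tlr4, whose own level overlapped, separated on this ratio, at 1.96 to 3.28 against 1.48 to 1.75, since Csf1r itself stood at 17.9 ± 4.33 CPM in the controls and 27.5 ± 2.93 under inhibition (SD, n = 3). DESeq2 called Csf1r of the macrophage markers and Ccr2 and Fn1 of the monocyte markers higher, where it called 3.67% of all genes. In edgeR 0 of both lists were called.

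Markers of other tissue in the graft differed between the groups too. Skeletal muscle markers summed to 823, 1874 and 1166 CPM in control 1, 2 and 3 and to 3963, 3480 and 2252 CPM in inhibition 1, 2 and 3, and fibroblast markers to 598 to 914 and 1107 to 1447 CPM. DESeq2 called 5 of 13 tested muscle markers and 5 of 8 fibroblast markers higher, where it called 3.67% of all genes. In edgeR 0 of them were called. The 10 T and NK cell markers summed to at most 6.64 CPM and 0 of them passed the count filter. The part of tissue content in the members' levels was not tested.

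**Figure D3:**
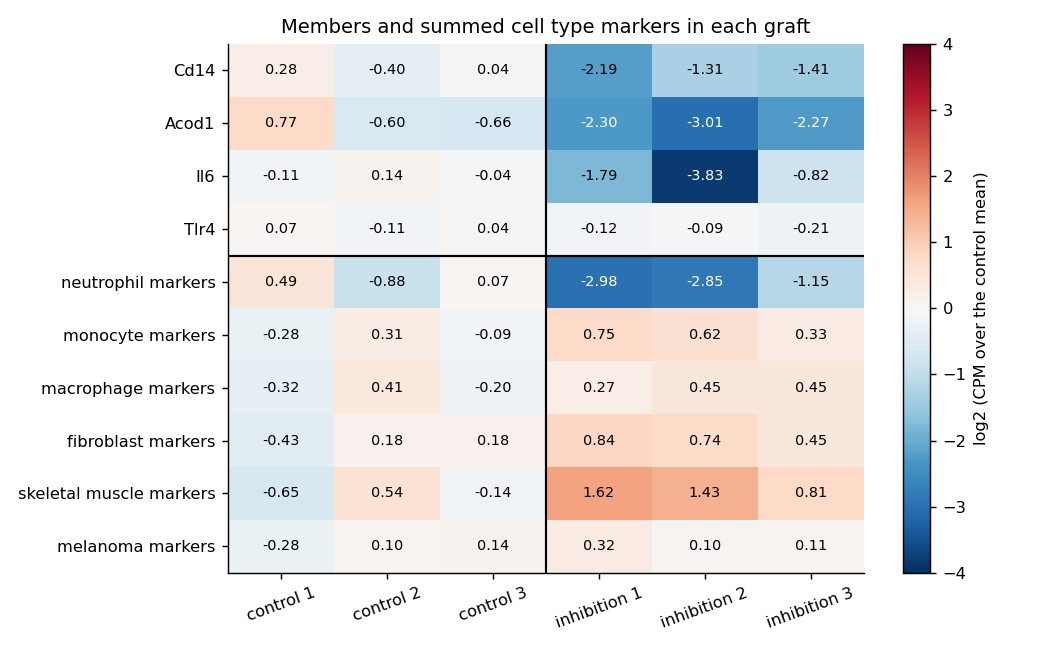
Log2 of the CPM over the mean of the 3 controls, for Cd14, Acod1, Il6 and Tlr4 and for the summed markers of 6 cell types (rows) in each graft (columns), with the value printed in each cell. Neutrophil markers are at -2.98, -2.85 and -1.15 in inhibition 1, 2 and 3, where Cd14 is at -2.19, -1.31 and -1.41 and the macrophage markers are at 0.27, 0.45 and 0.45.

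The profile of Cd14 over the 6 libraries was compared with that of 12896 named genes with a mean of at least 1 CPM, as a Pearson correlation of log2 CPM, which describes 6 points that fall into 2 groups. The highest were Tpi-rs11 (0.998), Zfp839 (0.997), Psma3 (0.997), a proteasome subunit, and Rps19 (0.996), followed by Rps13, Rpl12, Bnip3l and Ndfip1 at 0.993 or more. Rps19, Rps13 and Rpl12 encode ribosomal proteins, and Tpi-rs11 is named as related to a glycolysis gene and may share its reads. Their log2 fold changes, -0.23 to -0.54, were much smaller than that of Cd14. The lowest were Bmper (-0.996), Arhgap24 (-0.995), Pik3ap1 (-0.992) and Snrpa (-0.991). A correlation over 0.9 was reached by 470 genes, 3.64% of those compared.

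Of the other members, Acod1 correlated with Cd14 at 0.870, Ly96 at 0.809, Tlr4 at 0.766, Il6 at 0.656 and Ptgs2 at 0.557 over the 6 libraries. Tnf (0.182), Nos2 (0.170), Myd88 (-0.092) and Tlr2 (-0.502) were lower. Taken as deviations from each group's mean, the values were 0.38 for Tlr4, 0.30 for Ptgs2, 0.20 for Acod1, 0.04 for Tlr2, -0.28 for Il6, -0.50 for Nos2, -0.61 for Tnf, -0.64 for Myd88 and -0.66 for Ly96. With 3 grafts in each group these describe the libraries only, and nothing is read from their signs.

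The other genes of the pathway were 195 in 13 lists by role, of which 178 passed the count filter. In edgeR, with Benjamini-Hochberg adjustment over all genes, 0 of the 178 were called, and at an unadjusted p under 0.05 there were 30 lower and 14 higher. These are 16.9% and 7.87% of the 178, beside 7.00% and 8.36% of all genes tested. DESeq2 called 15 of them, 10 lower and 5 higher, where it called 3.67% of all genes. Their median log2 fold change was -0.03, and that of all genes was 0.00. The values below are therefore given as levels and fold changes and not as calls, and each adjusted p is from edgeR unless DESeq2 is named.

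Of 40 genes induced by lipopolysaccharide in myeloid cells, 34 were tested and 24 were negative, and the median log2 fold change was -0.42. At an unadjusted p under 0.05 there were 13 lower and 1 higher, where 7.00% and 8.36% of all genes were. Cxcl3, a chemokine that attracts neutrophils, stood at 10.7, 3.97 and 10.1 CPM in the controls and at 0.490, 0.154 and 0.762 CPM under inhibition. Its log2 fold change was -4.11 (adjusted p = 0.0788), and ran from -4.76 to -3.69 with 1 library left out. Il1b, the interleukin 1 beta gene, had 9.89 to 33.9 CPM in the controls and 1.79 to 4.43 CPM under inhibition (-2.88, adjusted p = 0.166). Hdc, which makes histamine, had 8.30 ± 2.42 and 1.80 ± 0.386 CPM (SD, n = 3; -2.20, adjusted p = 0.0666). All 3 separated the groups, as Cd14 did. DESeq2 called all 3 together with Ccl3, Cxcl1 and Cxcl2, with 0 of the list called higher, where it called 3.67% of all genes. Of the 34 tested, 12 lay lower and 0 higher without overlap, where 11.0% and 10.2% of all genes tested did. Ccl2, a monocyte chemokine that was named after its value was seen, was the 1 of the 10 positive genes that was higher at an unadjusted p under 0.05, with 8.39, 12.6 and 9.05 CPM in the controls, 18.3, 15.8 and 12.2 CPM under inhibition and overlapping groups.

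Of the other toll-like receptors, 8 of 10 were tested and 7 had positive log2 fold changes (median 0.40), with Tlr11 and Tlr12 below the filter. Tlr9, the receptor for bacterial DNA, stood at 0.181, 1.11 and 0.726 CPM in the controls and at 2.10, 1.23 and 1.43 CPM under inhibition, for a log2 fold change of 1.23 (adjusted p = 0.310). The receptors for single-stranded RNA, Tlr7 and Tlr8, had log2 fold changes of 0.52 and 0.67 (adjusted p of 0.353 and 0.369), and in all 3 the inhibition grafts lay above the controls. These were 3 of the 8 tested, where 10.2% of all genes tested lay higher without overlap. None of these receptors was called by edgeR or DESeq2. At an unadjusted edgeR p under 0.05, 1 was higher, where 8.36% of all genes were. The chaperones that carry the receptors through the cell, Cnpy3, Unc93b1 and Cnpy4, differed by 0.14, 0.13 and 0.11 with overlapping groups (adjusted p of 0.423, 0.683 and 0.693).

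Proteins that deliver ligands or sit beside the receptors, 12 genes, included 1 with a large difference. The median log2 fold change was 0.25, and 0.09 to 0.53 with 1 library left out. Trem1, an amplifying receptor of neutrophils and monocytes, stood at 4.89, 1.89 and 2.71 CPM in the controls and at 0.631, 0.666 and 0.667 CPM under inhibition. Its log2 fold change was -2.26 (adjusted p of 0.122 and called lower by DESeq2). The same gene is also among the neutrophil markers given above. Tril, an accessory protein of TLR4 signalling, and Rftn1, a lipid raft protein, had log2 fold changes of 1.03 and 0.61 (adjusted p of 0.286 and 0.332).

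In the signalling chain the median difference was small. Of 26 tested adaptors, kinases and interferon regulatory factors 15 were negative, with a median of -0.05 (-0.13 to 0.0 with 1 library left out). At an unadjusted p under 0.05 there were 2 lower and 1 higher, where 7.00% and 8.36% of all genes were. Ikbkg, the regulatory subunit of the kinase that frees NF-kappaB, had a log2 fold change of -0.26, Map3k7, the kinase above it, -0.18, and Irf3, the interferon factor of the other branch, 0.26 (adjusted p of 0.228, 0.304 and 0.259). In each of these 3 the groups did not overlap. Of the 26 tested, 6 lay lower and 1 higher without overlap, where 11.0% and 10.2% of all genes tested did. Of 10 NF-kappaB genes 9 were negative (median -0.09), and the subunit genes Rela and Relb had log2 fold changes of -0.08 and -0.40 (adjusted p of 0.598 and 0.287).

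Inhibitors of the pathway, many of which NF-kappaB itself induces, were negative in 12 of 18 tested. Their median was -0.13, and -0.24 to -0.08 with 1 library left out. At an unadjusted p under 0.05 there were 5 lower and 0 higher, where 7.00% and 8.36% of all genes were. Without overlap 6 lay lower and 1 higher, where 11.0% and 10.2% of all genes tested did. Tnfaip3, which encodes the deubiquitinase A20, stood at 16.9, 8.98 and 9.49 CPM in the controls and at 5.75, 6.76 and 6.00 CPM under inhibition, for a log2 fold change of -0.93 (adjusted p of 0.186 and called lower by DESeq2). Nfkbia, the inhibitor that holds NF-kappaB in the cytoplasm, had 36.6, 24.3 and 21.8 CPM and 18.1, 20.7 and 17.7 CPM (-0.55, adjusted p = 0.244). Dusp1, a phosphatase of the MAP kinases, had a log2 fold change of -0.54 (adjusted p = 0.232). Control 1 was the highest of the 6 grafts for all 3, as it was for Cd14 and Acod1.

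**Figure D4:**
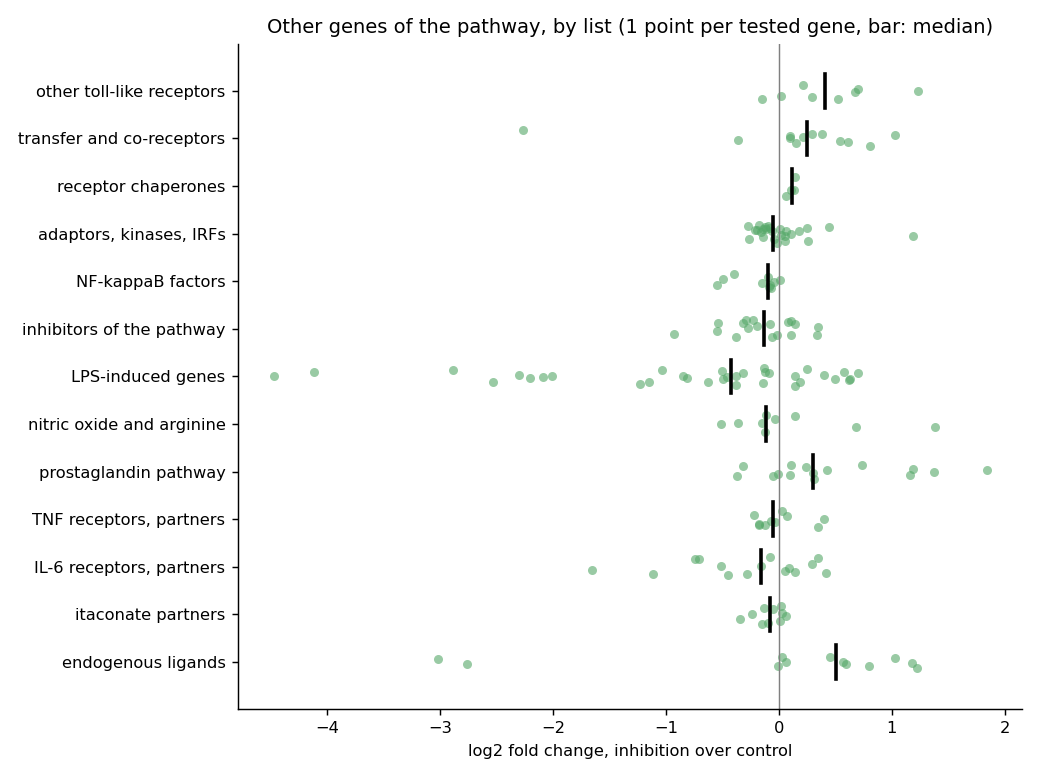
Log2 fold change of inhibition over control (horizontal axis) for each tested gene of the 13 pathway lists (rows, 1 point per gene), with the median of each list as a black bar. The LPS-induced genes reach -4.47 while their median is -0.42, and the medians of the adaptors and of the NF-kappaB factors are -0.05 and -0.09.

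Around the enzymes, the other 2 nitric oxide synthases had positive log2 fold changes beside -0.16 for Nos2. Nos1, the neuronal form that muscle also makes, stood at 2.23, 2.93 and 2.52 CPM in the controls and at 7.64, 8.71 and 3.72 CPM under inhibition, for a log2 fold change of 1.38 (adjusted p of 0.166 and called higher by DESeq2). Nos3, the endothelial form, had a log2 fold change of 0.68, and Ass1, which resupplies arginine, -0.36 (adjusted p of 0.247 and 0.294). Muscle and endothelial markers were higher in the same grafts, with endothelial markers at 144 to 254 CPM in the controls and 277 to 320 CPM under inhibition, and their part in these values was not tested. Of the 8 endothelial markers DESeq2 called Cdh5 and Kdr higher, where it called 3.67% of all genes, and edgeR called 0.

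In the prostaglandin pathway 15 of 17 genes were tested, 11 were positive and the median was 0.30. Ptger4, a receptor for prostaglandin E2, stood at 0.483, 1.04 and 0.194 CPM in the controls and at 1.68, 1.84 and 2.43 CPM under inhibition, for a log2 fold change of 1.84 (adjusted p = 0.186). With 1 library left out it ran from 1.39 to 2.57, the latter without control 2, the highest control. Counts in the controls were 4 to 16 reads. Ptgis, the prostacyclin synthase, had a log2 fold change of 1.37 with overlapping groups, and Hpgds, a prostaglandin D synthase, -0.37 (adjusted p of 0.230 and 0.166, the latter called lower by DESeq2). For itaconate, Sdhb, a subunit of the succinate dehydrogenase that itaconate inhibits, Hmox1, a heme-degrading stress enzyme, and Keap1, the sensor that itaconate can modify, had log2 fold changes of -0.24, -0.34 and -0.13 (adjusted p of 0.186, 0.206 and 0.481). Of these, DESeq2 called Sdhb.

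Of the genes around TNF 10 were tested, with a median log2 fold change of -0.05, and of those around IL-6 15, with a median of -0.16. Tnfrsf1b, the second receptor of TNF, stood at 11.5, 11.5 and 11.4 CPM in the controls and at 14.3, 14.2 and 15.3 CPM under inhibition, a narrow separation with a log2 fold change of 0.35 (adjusted p = 0.235). Tnfrsf1a, the first receptor, and its adaptor Tradd overlapped between the groups, and their log2 fold changes were -0.22 and -0.18 (adjusted p of 0.407 and 0.637). Among the IL-6 receptor genes, named after their values were seen, Il6ra had a log2 fold change of 0.42 and Il6st 0.05, both with overlapping groups. Osm, a cytokine of the IL-6 family, stood at 2.13 ± 0.677 CPM in the controls and at 0.659 ± 0.379 CPM (SD, n = 3) under inhibition. Its log2 fold change was -1.65 (adjusted p = 0.186), and ran from -2.27 to -1.45 with 1 library left out. Cebpb, the C/EBP factor known to act on the Il6 gene, had 20.3, 21.3 and 18.0 CPM and 10.3, 8.15 and 17.2 CPM (-0.74, adjusted p = 0.251), and the kinase Jak2 had a log2 fold change of -0.28 (adjusted p = 0.226). Inhibition 3 was the highest inhibition graft for Osm and Cebpb, as it was for Il6.

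Of 14 host proteins described as ligands of TLR2 and TLR4, 12 were tested, 9 were positive and 3 negative, and the median log2 fold change was 0.51. The matrix proteins Lum, Fn1 and Vcan had log2 fold changes of 1.18, 0.57 and 1.03 (adjusted p of 0.199, 0.218 and 0.222), with no overlap between the groups. DESeq2 called them higher together with Bgn, where it called 3.67% of all genes. Of the 12 tested, 4 lay higher and 2 lower without overlap, where 10.2% and 11.0% of all genes tested did. The neutrophil and monocyte proteins S100a8 and S100a9, named after their values were seen, were 2 of the 3 negative genes. S100a8 had 20.6, 6.70 and 17.7 CPM in the controls and 0.140, 0.307 and 4.81 CPM under inhibition. S100a9 had 39.3, 12.4 and 32.6 CPM in the controls and 0.631, 0.717 and 10.6 CPM under inhibition. The groups did not overlap, but inhibition 3 lay close to control 2 for both genes. Neither test called them, with an adjusted p of 0.320 and 0.352 in edgeR and of 0.228 and 0.234 in DESeq2.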

How the data were processed

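The deposited table holds raw read counts per Ensembl gene for 6 libraries, made by the authors with HISAT2 2.0 on mm10, per the submitters' processing notes. Which program counted the reads, the annotation release and the strand setting are not given in the sources used here. Of 55487 gene IDs, 55141 matched a symbol; the other 346 carried 0.0575% of counts. Columns were assigned by name, and 0 sample columns were unused. Libraries of one group differed by a chi-square of at least 7.65 per degree of freedom, so none was a repeat run of another library. This cannot show whether any of them came from the same graft or animal.

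Genes were filtered (filterByExpr, count minimum 10, total minimum 15), scaled with TMM factors and tested with edgeR 4.0.16 in R 4.3.3 (quasi-likelihood, robust), with Benjamini-Hochberg adjustment over 15666 genes and 0.05 as the threshold of the adjusted p. A fold change is the level under inhibition over that in the controls. The standard error is the absolute log2 fold change over the square root of F. Levels are CPM on the same scaling, and 1 count was worth 0.0477 to 0.0691 CPM before scaling. Coordinates and exon lengths are from GENCODE M21 on GRCm38, the assembly of mm10. Correlations used log2 CPM with a prior count of 2.

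The members and the lists of pathway genes and cell type markers were chosen with earlier results of these data known. The genes named are all members, the 3 of smallest p in each pathway list, the 8 most and 4 least like Cd14, and a few stated exceptions. Other settings tried were factors by RLE or the upper quartile, no filter, a filter of 1 CPM in every library of a group, DESeq2 1.42.0, a replicate block, each library left out, and scaling without muscle, epithelium and gland genes. On simulated counts for 15458 genes of this comparison, 60.2% of 98 genes changed 2-fold and 89% of 100 changed 4-fold were called, with 16 of 15260 unchanged genes. The counts were drawn for each gene separately from its fitted dispersion, with no graft that differed as a whole. These shares therefore need not hold for the real grafts.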

Additional observations from a re-analysis of the deposited data

How the results depend on the processing

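The number of genes called by edgeR, 6, stayed at 6 with RLE factors, upper-quartile factors, the stricter filter and the scaling without tissue genes. It was 14 with the replicate block, 541 in DESeq2 and 1187 with no filter. Leaving out 1 library gave 0 to 217 calls: 0 without control 3, inhibition 1 or inhibition 2, 11 without control 1, 24 without control 2 and 217 without inhibition 3. At an unadjusted p under 0.05, the 3 fits with 0 calls had 1094, 655 and 933 genes lower and 1094, 770 and 772 higher.

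Of the 10 members, 0 were called in the fit of all libraries and 0 with the replicate block, against 3 in DESeq2 and 3 with no filter (Cd14, Acod1 and Il6 in both). Leaving out a library gave 0 to 2 called members. Of the pathway genes, 0 were called, against 2 with the replicate block, 15 in DESeq2, 24 with no filter and 0 to 7 with a library left out. Of the cell type markers, 0 were called, against 21 in DESeq2, 23 with no filter and 0 to 7 with a library left out. The causes were not tested.

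The scaling, filter, block and DESeq2 settings moved Cd14 between -1.58 and -1.56, Acod1 between -2.49 and -2.34 and Il6 between -1.88 and -1.67 on the log2 scale. With 1 library left out, Cd14 ran from -1.75 to -1.37, Acod1 from -2.74 to -1.87, Il6 from -2.55 to -1.20 and Tlr4 from -0.21 to -0.12. Tnf, at 9 to 20 reads per library, did not pass the stricter filter and has no value there. Libraries of the same replicate number had correlations of their deviations from the group means of -0.180, 0.327 and 0.0865. Those of different numbers ran from -0.386 to 0.295. With 3 libraries in each group these values do not settle whether the numbers pair the grafts. The monocyte markers without Fn1 were an alternative chosen after the data were seen.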

Other observations

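Further marker lists described the grafts. Dendritic cell markers summed to 13.6 to 19.4 CPM in the controls and 16.3 to 18.9 CPM under inhibition, with a median log2 fold change of -0.02 over 5 tested genes. Mast cell and basophil markers summed to 7.72 to 21.9 and 16.5 to 32.2 CPM, with a median of 0.97 over 5 genes, and DESeq2 called Mcpt4, a mast cell protease, higher. Squamous epithelium markers summed to 1245 to 2778 and 1568 to 4910 CPM, with a median of 0.69 over 13 genes, and DESeq2 called Lor and Flg higher. B cell markers stayed at or under 4.30 CPM and salivary gland markers at or under 0.820 CPM in every library. Over all genes DESeq2 called 3.67%. In edgeR 0 of these markers were called.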
